A study of Mus musculus with 4 samples.

Results

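Interferon-induced and antigen presentation genes were examined on microarrays of the hippocampus, in male mice of the C57BL/6JJmsSlc strain that had gone through repeated social defeat stress (R-SDS) or had served as controls. The members were 38 genes listed by name for their known roles, by a rule that uses no measured value, though the list was drawn up with earlier results of these data known. Of these, 33 had a transcript cluster annotated to that gene alone, out of 19938 genes measured in this way. R-SDS mice (2 arrays, R-SDS 1 and R-SDS 2) had been housed alone and then placed with an aggressive male mouse of the ICR strain for 10 min a day on 10 days. Between these contacts they stayed in its cage, separated from it by a partition, and the pairing was changed at random each day. The hippocampus was taken some days after the last defeat, with behavioural tests in between. Control mice (2 arrays, Control 1 and Control 2) lived in pairs in divided cages, the partner being exchanged each day. All mice were 11 to 12 weeks old, the labels name no transgene, mutant allele or drug in either group, and each array held RNA of 1 mouse. The R-SDS mice on the arrays are described by the study as the susceptible class, which avoided an unfamiliar ICR mouse, whereas the sample labels give the stress only. With 2 arrays per group, each SD below rests on 2 values.

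Interferons are secreted proteins by which cells announce a viral infection to themselves and their neighbours. Type I interferons bind a receptor of the chains IFNAR1 and IFNAR2, and the kinases on it activate STAT2, which joins IRF9 and switches on genes carrying an interferon-stimulated response element. Interferon gamma acts through another receptor, at gamma-activated sites, and raises the genes of antigen presentation. Class I molecules show peptides from inside the cell to cytotoxic T cells, and class II molecules show peptides taken up from outside to helper T cells. In the healthy brain many, though not all, of these genes are kept at low activity. Microglia, vascular cells and the cells of the brain's borders are among their known sites of expression.

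Values are on the log2 scale, and differences are R-SDS minus Control. Of the 33 measured members, 0 passed limma's test after Benjamini-Hochberg adjustment over all transcripts, where the background was 0% of all genes, and every member's adjusted p was 1. At a log2 difference above 0.5 with an unadjusted limma p under 0.05, the thresholds given in the methods, 2 members were higher in R-SDS mice, against 0.135% of all genes. These were Ifitm2 and Ifitm3, which encode membrane proteins that keep viruses from entering cells. With the methods' t-test in place of limma, 0 members passed (0.0251% of all genes), and when the rows without a single gene symbol were tested as well, only Ifitm3 did (0.115% of all genes). No member was lower past the same thresholds (0 of 33, against 0.196% of all genes). The count of 2 higher members depended on single arrays, being 0 without R-SDS 1 (0.497% of all genes), 8 without R-SDS 2 (2.00%), 3 without Control 1 (0.341%) and 0 without Control 2 (0.848%). Without a control array the SE was larger (0.33 in place of 0.25 for Ifitm2), so that a call could be lost while the difference changed little. Without Control 1 the differences of Ifitm2 and Ifitm3 were 0.70 and 0.57, and without Control 2 that of Ifitm2 was 0.60. The difference of Ifitm2 changed more when an R-SDS array was left out, as given below. Because the calls changed with the array left out, the values below are described array by array.

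The mean was higher in R-SDS mice for 28 of 33 members (53.4% of all genes) and lower for 4, and the median difference was 0.14 over the members and 0.01 over all genes. Both R-SDS arrays lay above both control arrays for 13 members (9.52% of all genes) and below both for 0 (8.81%). These 13 were Ifitm2, Ifitm3, Stat2, Parp14, B2m, Oasl2, Rsad2, Usp18, Irf9, Tap1, Psmb8, Mx1 and Gbp3. Only Ifitm2, Ifitm3, Stat2 and Parp14 among them differed by more than 0.3. After quantile normalization the count was 9 (12.5% of all genes), with Oasl2, Rsad2, Usp18, Psmb8, Mx1 and Gbp3 no longer among them and Ifitm1 and Ciita added. Without R-SDS 1 the mean was higher for 21 of 33 members (50.2% of all genes). These shares describe the members and carry no test of the list.

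Much of the height came from 1 array. R-SDS 1 held the highest of the 4 values for 22 of 33 members (30.0% of all genes), while R-SDS 2 did so for 5, Control 1 for 3 and Control 2 for 3. R-SDS 1 was the lowest for 2 members, R-SDS 2 for 6, Control 1 for 10 and Control 2 for 15. Measured from the mean of both controls, R-SDS 1 lay at 0.25 for the median member and R-SDS 2 at 0.06. The spread of all values on an array followed the replicate number, with an interquartile range over all rows of 3.37 in R-SDS 1 and 3.34 in Control 1, and of 3.11 in R-SDS 2 and 3.06 in Control 2. Differences are for this reason also given within each number. Within number 1 the median member difference was 0.24, and 15 members were higher by over 0.3 (7.64% of all genes). Within number 2 the median was 0.09, and Ifitm2, Ifitm3, Stat2 and Tap2 were higher by over 0.3 (4 members, against 3.70% of all genes). In both numbers 20 members were higher (27.8% of all genes) and only Ifit3 was lower (1 member, against 22.3%).

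**Figure D1:**
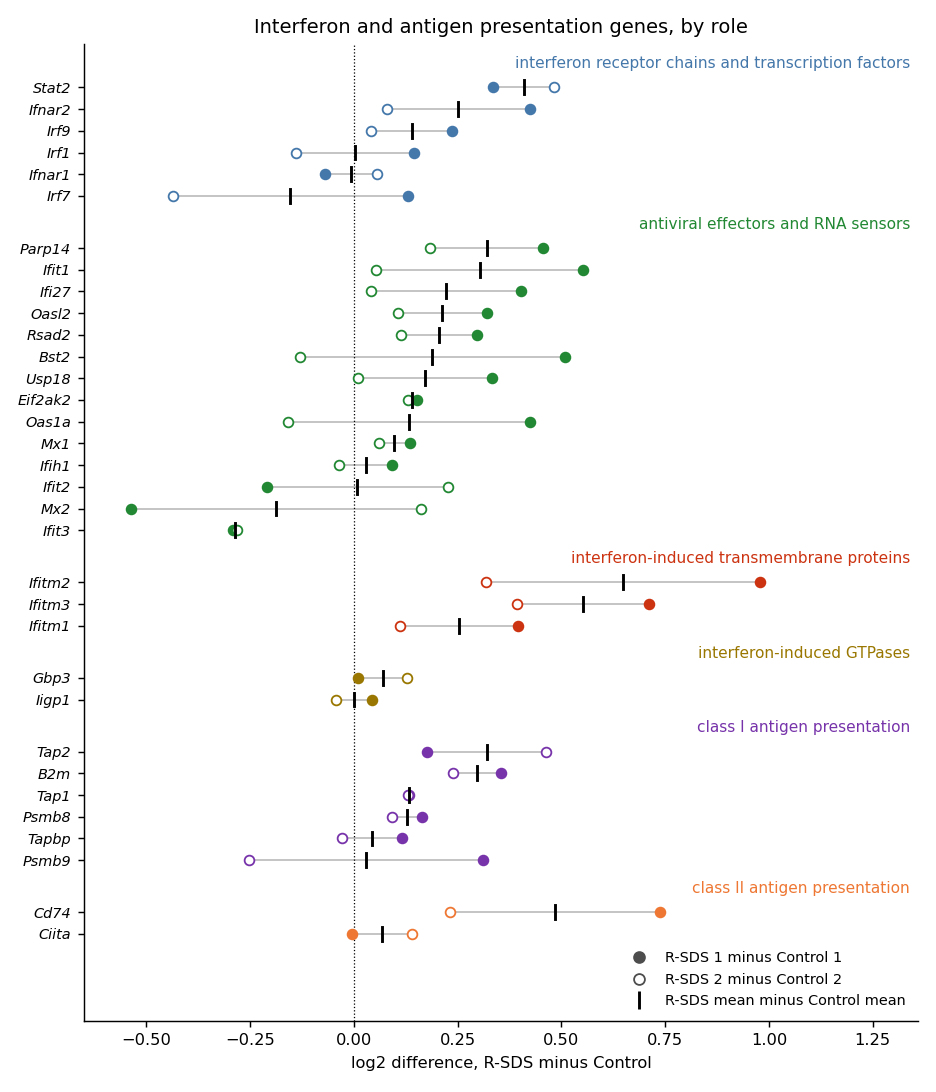
Log2 difference of R-SDS minus Control (horizontal axis) for each of the 33 measured members, grouped by role, with the difference within replicate number 1 (filled circles), within number 2 (open circles) and between group means (black ticks). The black ticks of Ifitm2 and Ifitm3 stood farthest to the right, though not all of their circles did. Ifit3 lay on the left in both numbers, and for Bst2, Oas1a, Psmb9 and Irf7 the circles fell on opposite sides of 0.

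The promoters of the genes on which these results turn are shown with matches to the core of the element through which STAT2 and IRF9 act. A window without a match does not show that a gene lacks the element. Each runs from 250 bases before to 50 bases after the gene's start in the RefSeq annotation of GRCm38.p6, 5′ to 3′ in the direction of the gene, and capitals mark the core of the interferon-stimulated response element. The core searched, on both strands, was GAAA, any 2 bases and GAAA again, which reads as TTTC, 2 bases and TTTC where it lies on the other strand.
Ifitm3 (chr7:141010695-141010994, minus strand): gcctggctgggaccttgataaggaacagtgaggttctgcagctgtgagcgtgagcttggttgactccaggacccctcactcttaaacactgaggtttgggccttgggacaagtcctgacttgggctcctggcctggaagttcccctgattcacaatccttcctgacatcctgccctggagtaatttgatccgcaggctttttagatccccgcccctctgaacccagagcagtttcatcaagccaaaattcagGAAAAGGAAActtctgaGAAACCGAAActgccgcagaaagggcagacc
Ifitm2 (chr7:140955912-140956211, minus strand): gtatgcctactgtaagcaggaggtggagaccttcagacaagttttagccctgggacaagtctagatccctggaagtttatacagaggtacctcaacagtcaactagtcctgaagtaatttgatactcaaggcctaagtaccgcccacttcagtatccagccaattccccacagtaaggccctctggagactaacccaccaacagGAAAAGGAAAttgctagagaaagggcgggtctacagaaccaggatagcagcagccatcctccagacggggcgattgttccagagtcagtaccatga
Ifitm1 (chr7:140967826-140968125, plus strand): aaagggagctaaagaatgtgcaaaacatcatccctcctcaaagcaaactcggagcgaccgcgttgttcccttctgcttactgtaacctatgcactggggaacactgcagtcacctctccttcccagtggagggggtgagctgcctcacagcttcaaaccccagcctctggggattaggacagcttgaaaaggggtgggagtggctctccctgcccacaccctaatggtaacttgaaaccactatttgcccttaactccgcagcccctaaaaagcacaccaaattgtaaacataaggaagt
Stat2 (chr10:128270248-128270547, plus strand): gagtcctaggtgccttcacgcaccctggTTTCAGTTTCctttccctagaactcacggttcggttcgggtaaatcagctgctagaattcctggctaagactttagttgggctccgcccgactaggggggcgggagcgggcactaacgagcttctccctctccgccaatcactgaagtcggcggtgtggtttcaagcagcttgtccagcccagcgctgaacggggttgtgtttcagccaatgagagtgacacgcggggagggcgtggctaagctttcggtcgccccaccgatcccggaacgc
B2m (chr2:122147437-122147736, plus strand): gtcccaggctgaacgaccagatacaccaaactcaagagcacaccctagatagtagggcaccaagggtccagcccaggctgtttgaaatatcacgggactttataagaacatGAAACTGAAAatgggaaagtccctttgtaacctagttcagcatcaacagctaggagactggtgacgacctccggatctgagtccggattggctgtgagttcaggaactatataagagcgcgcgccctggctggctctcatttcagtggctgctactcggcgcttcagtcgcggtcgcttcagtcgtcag
Ifit3 (chr19:34583279-34583578, plus strand): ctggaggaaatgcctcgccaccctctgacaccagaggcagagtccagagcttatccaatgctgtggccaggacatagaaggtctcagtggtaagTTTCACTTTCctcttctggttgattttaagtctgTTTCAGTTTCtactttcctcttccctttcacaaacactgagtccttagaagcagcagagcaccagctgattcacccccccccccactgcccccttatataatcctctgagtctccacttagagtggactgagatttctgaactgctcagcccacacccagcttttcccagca

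Ifitm3 held the core at positions 2 and 19 after its start, and Ifitm2 at position -46 before it. The window of Ifitm1 had no match. Stat2 had 1 match starting at -222, B2m 1 at -139 and Ifit3 a pair at -156 and -122. Over all members the core was found in 14 of the 29 with a promoter entry (48.3%), and in 3.99% of the 27025 mouse genes with promoter entries (3.44% of the 32851 promoters, all of the same length). The members were listed for their known roles, so a larger share among them can follow from that choice and is no result of these data. Besides the genes printed above, the members with the core were Bst2, Eif2ak2, Gbp2, Gbp3, Ifih1, Ifit1, Isg15, Oas1a and Rsad2. In Bst2, Gbp3, Isg15 and Oas1a, neighbouring matches shared 4 bases with each other. The 12 measured members with the core had a median difference of 0.20 (0.34 within number 1 and 0.12 within number 2), and the 12 without it one of 0.09 (0.15 and 0.07). Ifit3, with 2 matches, had the lowest difference of all members (-0.29), and Parp14, among the higher ones, had no promoter entry. The gamma-activated site TTCNNNGAA, which reads the same on both strands, was found in 9 of the 29 (31.0%) and in 9.55% of all genes with promoter entries (8.30% of promoters). Its carriers were Bst2, Eif2ak2, Ifit2, Ifitm3, Ifnar1, Ifnar2, Irf1, Oas1a and Psmb8, and in Ifitm3 and Bst2 the match overlapped one of the response element. Members with this site had a median difference of 0.13 and those without it one of 0.14. A match describes letters only, and binding was not measured. Whether members with and without a match differ was not tested.

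The receptor chains and transcription factors stand at the head of the response. Stat2, the partner of IRF9 in the complex that binds the response element, had values of 7.53 and 7.28 in R-SDS mice, against 7.19 and 6.80 in control mice. It was higher within number 1 (0.34) and within number 2 (0.48), and its group difference was 0.41 ± 0.18 (SE), a 1.33-fold change (limma's unadjusted p = 0.0683, adjusted p = 1). The groups did not overlap, but the lower R-SDS array exceeded the higher control array by less than the gap between both controls. Irf9, the DNA-binding partner of the same complex, was at 6.61 and 6.51 in R-SDS mice and at 6.37 and 6.46 in control mice, a difference of 0.14. Ifnar2 differed by 0.25 and Ifnar1 by -0.007, and the groups overlapped for both. Neither difference exceeded the spread between arrays.

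Irf7, which drives the second wave of type I interferon, had the lowest difference of this role. Its values were 5.89 and 5.52 in R-SDS mice and 5.76 and 5.96 in control mice, a difference of -0.15 ± 0.17 (SE). The arrays did not share a direction, since it was higher by 0.13 within number 1 and lower by 0.44 within number 2. Irf1, an activator of class I genes downstream of interferon gamma, had 2 rows, with differences of 0.0033 and 0.14, both with overlapping groups. Over the 6 genes of this role, 4 had a higher mean (53.4% of all genes) and 2 a lower one, with a median difference of 0.07. Above without overlap lay 2 of them (9.52% of all genes).

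Among the antiviral effectors and RNA sensors, the mean of 12 of 14 measured genes was higher in R-SDS mice (53.4% of all genes). That of 2 was lower, and the median was 0.16. Parp14, a transferase of ADP-ribose, showed values of 5.77 and 5.65 in R-SDS mice against 5.31 and 5.46 in control mice. Its difference was 0.32 ± 0.14 (SE), 1.25-fold (limma's unadjusted p = 0.0592, adjusted p = 1), with 0.46 within number 1 and 0.18 within number 2. For this gene the arrays of each group lay close together, and the gap between the groups was larger than either within-group gap. Oasl2, an oligoadenylate synthetase-like protein, was at 6.49 and 6.24 in R-SDS mice and at 6.17 and 6.14 in control mice, a difference of 0.21. Rsad2, whose product viperin blocks the replication of many viruses, was at 5.60 and 5.46 in R-SDS mice and at 5.30 and 5.35 in control mice, a difference of 0.20. Both lacked overlap between groups, and in both R-SDS 1 was the highest array. Usp18, which strips ISG15 from proteins and damps the receptor, differed by 0.17, and Mx1, a dynamin-like GTPase, by 0.10, again without overlap. For Usp18 the groups were barely apart, with R-SDS 2 at 5.24 and Control 2 at 5.23.

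Several effectors were highest on R-SDS 1, while R-SDS 2 did not stand above both controls. Ifit1, which binds viral RNA, was at 5.65 and 5.05 in R-SDS mice and at 5.10 and 5.00 in control mice, so that its difference of 0.30 ± 0.21 (SE) was made of 0.55 within number 1 and 0.05 within number 2. Bst2, whose product tetherin holds budding viruses at the cell surface, was at 7.42 and 6.61 in R-SDS mice and at 6.91 and 6.74 in control mice. R-SDS 1 was the highest and R-SDS 2 the lowest of its 4 arrays. Ifi27 had values of 8.48 and 7.75 in R-SDS mice and 8.08 and 7.71 in control mice, with R-SDS 1 the highest and Control 2 the lowest. Oas1a, an oligoadenylate synthetase that activates RNase L, was higher by 0.42 within number 1 and lower by 0.16 within number 2. For these genes the group difference did not exceed the gap between the R-SDS arrays or, for Oas1a, between the controls.

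Ifit3, which binds IFIT1 and strengthens its hold on RNA in human cells, went the other way. It had values of 5.57 and 5.20 in R-SDS mice, against 5.86 and 5.48 in control mice. The difference was -0.29 ± 0.20 (SE), 0.82-fold (limma's unadjusted p = 0.197, adjusted p = 1), and it was nearly the same within number 1 (-0.29) and number 2 (-0.28). The groups overlapped because both arrays numbered 1 lay above those numbered 2. Mx2, the other dynamin-like GTPase, also had a lower mean, at 3.77 and 4.35 in R-SDS mice and 4.30 and 4.19 in control mice, with R-SDS 1 the lowest array. Ifit2, Ifih1, which encodes the RNA sensor MDA5, and Eif2ak2, which encodes the kinase PKR, had differences of 0.01, 0.03 and 0.14, with overlapping groups.

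The interferon-induced transmembrane proteins had the largest differences of all roles, with a median of 0.55 over 3 genes. Ifitm3 was at 8.46 and 8.11 in R-SDS mice, against 7.75 and 7.72 in control mice. Its difference was 0.55 ± 0.16 (SE), 1.47-fold (limma's unadjusted p = 0.014, adjusted p = 1), with 0.71 within number 1 and 0.39 within number 2. The gap between the groups was wider than the gap between either pair of arrays. Ifitm2 was at 9.14 and 8.38 in R-SDS mice, against 8.16 and 8.06 in control mice, a difference of 0.65 ± 0.25 (SE) or 1.57-fold (limma's unadjusted p = 0.0431, adjusted p = 1). R-SDS 1 stood farther above the controls than R-SDS 2, and the difference was 0.98 within number 1 and 0.32 within number 2. Without R-SDS 1 the difference of Ifitm2 was 0.27 and without R-SDS 2 it was 1.03, so that its size depended on which R-SDS array was used. The other 2 rows annotated to Ifitm2 gave differences of 0.55 and 0.45, each without overlap between groups.

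Ifitm1, the third measured gene of this role and the one without a match to the core in its printed promoter, had a less settled result. Its brighter row was at 6.28 and 6.39 in R-SDS mice and at 5.88 and 6.28 in control mice, a difference of 0.25 ± 0.17 (SE) with overlapping groups. Its further row was at 5.53 and 5.27 in R-SDS mice and at 4.41 and 5.09 in control mice, a difference of 0.65 (limma's unadjusted p = 0.0383, adjusted p = 1) without overlap. In both rows Control 1 was the lowest array by a wide gap. Ifitm1, Ifitm2 and Ifitm3 are close paralogues, and whether the probes of these rows separate them was not tested.

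**Figure D2:**
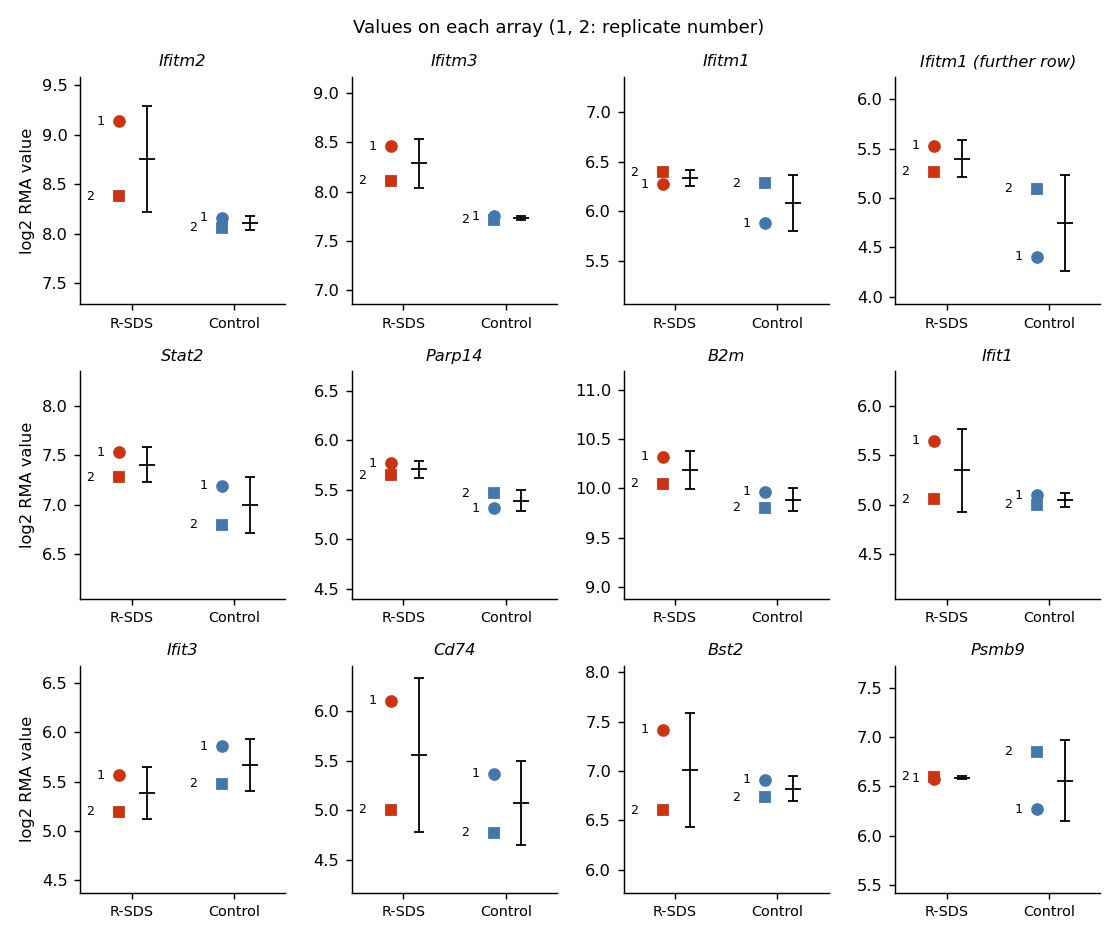
Log2 values (vertical axes of equal height in log2 units) of 11 members on the 4 arrays, with replicate numbers beside the points and the group mean and SD (n = 2 arrays) to the right of each group. Ifitm1 is drawn for both of its rows. For Ifitm2, Ifitm3, Stat2, Parp14 and B2m both R-SDS points lay above both Control points, for Ifit1 and Cd74 R-SDS 1 alone stood above the rest, and for Ifit3 each R-SDS point lay below the Control point of the same number.

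The interferon-induced GTPases, which act against bacteria and parasites inside cells, differed little. Gbp3, a guanylate-binding protein, was at 5.53 and 5.54 in R-SDS mice and at 5.52 and 5.41 in control mice, a difference of 0.07 without overlap. Iigp1, an immunity-related GTPase, was at 3.92 and 3.80 in R-SDS mice and at 3.87 and 3.85 in control mice, and its group means were equal to 2 decimals (3.86 each). The differences of both genes were within the spread between arrays.

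The mean of all 6 measured genes of class I antigen presentation was higher in R-SDS mice (53.4% of all genes), with a median of 0.13. For 3 of them the groups did not overlap (9.52% of all genes). B2m, the light chain that every class I molecule needs to reach the cell surface, was at 10.32 and 10.05 in R-SDS mice, against 9.97 and 9.81 in control mice. Its difference was 0.30 ± 0.16 (SE), 1.23-fold (limma's unadjusted p = 0.105, adjusted p = 1), with 0.35 within number 1 and 0.24 within number 2. Both R-SDS arrays exceeded both controls, though by less than the gap between the R-SDS arrays. Tap2 and Tap1 form the pump that carries peptides into the endoplasmic reticulum. Tap2 was at 6.66 and 6.41 in R-SDS mice and at 6.48 and 5.94 in control mice, a difference of 0.32 ± 0.21 (SE) that was 0.05 without Control 2, its lowest array. Tap1 was at 5.87 and 5.96 in R-SDS mice and at 5.74 and 5.83 in control mice, a small difference of 0.13 that was alike within number 1 (0.13) and number 2 (0.13).

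Psmb8 and Psmb9 are, beside Psmb10, inducible subunits of the immunoproteasome, which cuts peptides for class I molecules. Psmb8 was at 5.76 and 5.63 in R-SDS mice and at 5.60 and 5.54 in control mice, a difference of 0.13 without overlap. Psmb9 had the smallest difference of the role, at 6.58 and 6.60 in R-SDS mice and 6.27 and 6.85 in control mice, with both R-SDS arrays between the controls. Tapbp, which loads peptides onto class I molecules, differed by 0.04, and its values followed the replicate number, at 7.78 and 7.15 in R-SDS mice and 7.66 and 7.18 in control mice.

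Of the class II members, Cd74, the invariant chain that guards the peptide groove, was at 6.11 and 5.00 in R-SDS mice and at 5.37 and 4.77 in control mice. Its difference of 0.48 ± 0.38 (SE), 1.4-fold (limma's unadjusted p = 0.251, adjusted p = 1), was smaller than the gap between the R-SDS arrays, and the groups overlapped. Ciita, the activator that switches class II genes on, was at 4.93 and 5.19 in R-SDS mice and at 4.94 and 5.05 in control mice, a difference of 0.07 ± 0.15 (SE). Cd74 was higher in both numbers (0.74 and 0.23), and Ciita was lower by less than 0.01 within number 1.

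**Figure D3:**
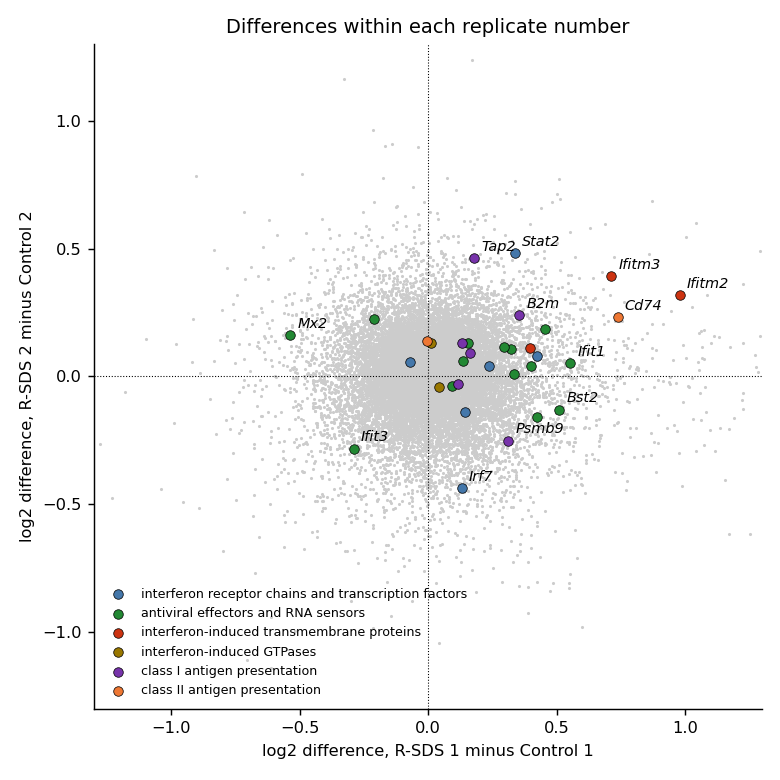
Log2 difference within replicate number 1 (R-SDS 1 minus Control 1, horizontal axis) against that within number 2 (R-SDS 2 minus Control 2, vertical axis) for all genes (grey) and for the 33 measured members (coloured by role, 12 of them named). The range drawn leaves out 44 of 19938 genes. Ifitm2, Ifitm3, Cd74, Stat2, B2m and Tap2 lay in the upper right, where both differences are above 0, Ifit3 in the lower left, and more members lay right of 0 than above it.

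The arrays also differed in markers of other cell types that a dissected hippocampus can hold, and these are given beside the members because R-SDS 1 was the highest array for 10 of the 12 lists, neurons included. Summed over 16 measured markers of choroid plexus epithelium on the linear scale, the level was 15100 and 1170 in R-SDS mice and 3660 and 874 in control mice. On the log2 scale relative to the mean of both controls, this list stood at 2.74 on R-SDS 1 and -0.95 on R-SDS 2. Control 1 stood at 0.69 and Control 2 at -1.38. Ttr was the brightest of these markers on each array, at 13.21 and 8.79 in R-SDS mice and 11.38 and 7.43 in control mice. The sum therefore leans on Ttr. The median deviation of single markers from the control mean was 2.33 on R-SDS 1 and -0.19 on R-SDS 2. The summed level of 12 markers of meningeal and perivascular fibroblasts was 3380 and 2180 in R-SDS mice and 2420 and 2000 in control mice. For 14 markers of brain endothelium it was 4290 and 3270 in R-SDS mice and 3470 and 3090 in control mice. In these 3 lists R-SDS 1, the array with the highest value for most members, was the highest and Control 1 the next. For 8 markers of border-associated macrophages the sums were 412 and 322 in R-SDS mice and 325 and 295 in control mice, for 11 of mural cells 2040 and 1730 in R-SDS mice and 1720 and 1530 in control mice, and for 14 of microglia 3180 and 2980 in R-SDS mice and 3010 and 2770 in control mice. Erythrocytes had 2 measured markers, with sums of 250 and 116 in R-SDS mice and 96.7 and 120 in control mice. The sums for 10 astrocyte markers were 13900 and 12300 in R-SDS mice and 12800 and 12000 in control mice, and those for 11 markers of neutrophils and platelets 399 and 341 in R-SDS mice and 300 and 345 in control mice. R-SDS 1 was thus the highest array for each of these lists. It was not for 10 markers of the oligodendrocyte lineage, with sums of 9760 and 8650 in R-SDS mice and 10400 and 8590 in control mice, nor for 13 markers of T, NK and B lymphocytes, with sums of 327 and 371 in R-SDS mice and 325 and 367 in control mice, and 9 of these 13 lay below the lower quartile of values on the arrays. The 14 measured markers of hippocampal neurons, the labelled tissue, summed to 26000 and 24400 in R-SDS mice and 25300 and 23700 in control mice, and 0 of the 14 lay below that quartile.

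Within number 2 the summed level of R-SDS 2 over Control 2 was 0.42 on the log2 scale for the choroid plexus markers, 0.08 for endothelium, 0.13 for fibroblasts, 0.18 for mural cells, 0.13 for border-associated macrophages and 0.11 for microglia. Within number 1 the ratio of R-SDS 1 over Control 1 was 2.05 for choroid plexus, 0.31 for endothelium, 0.49 for fibroblasts, 0.24 for mural cells, 0.34 for border-associated macrophages and 0.08 for microglia, beside a median member difference of 0.24. The median difference of single markers within number 2 was 0.02 for choroid plexus, 0.06 for endothelium, -0.06 for fibroblasts, 0.16 for mural cells, 0.17 for border-associated macrophages and 0.11 for microglia, beside 0.09 for the members. Within number 2 the members' median lay within the range of the medians of these 6 lists. So did the median of all genes (0.01), so that this range separates little. The part of these cell types in the members' differences was not tested. In bulk tissue, more cells of a type and more RNA per cell cannot be told apart.

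**Figure D4:**
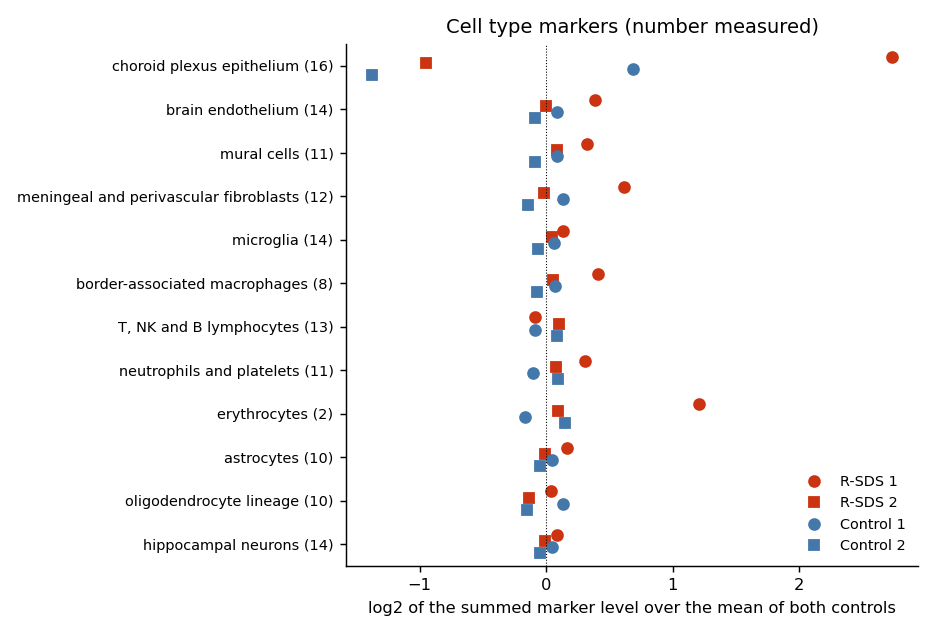
Summed level of the markers of 12 cell types on each array, as log2 relative to the mean of both control arrays (horizontal axis), with the number of measured markers in parentheses. R-SDS 1 (red circles) was the highest array for 10 of the 12 lists, lymphocytes and the oligodendrocyte lineage being the exceptions, and R-SDS 2 (red squares) lay near the controls in most lists.

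Further genes of the same pathways, from lists of 134 names of which 109 were measured, had a median difference of 0.03, with 62 of 109 means higher (53.4% of all genes) and 47 lower, 19 genes above without overlap (9.52% of all genes) and 6 below (8.81%). By limma's unadjusted p under 0.05, 2 were higher (Myd88 and H2-Ab1, against 0.461% of all genes) and 0 lower (0.522%), and 0 passed the adjusted p. Among ligands, further receptors and signalling genes, 9 of 21 had a higher mean (53.4% of all genes) and 12 a lower one. Of the interferon genes themselves, Ifnb1 was at 4.09 and 4.06 in R-SDS mice and at 3.93 and 4.23 in control mice. Ifng was at 4.59 and 4.78 in R-SDS mice and at 4.72 and 5.00 in control mice. Neither group mean was higher in R-SDS mice. The other measured interferon genes, Ifna2, Ifna4 and Ifnk, had differences of -0.17, -0.11 and -0.17, Ifna2 being lower without overlap. All of these interferon genes but Ifna2 lay below the lower quartile of every array, so that little can be read from their differences. Irf5, a transcription factor of macrophages, was chosen after its values were seen because it lay lower without overlap, at 5.81 and 5.88 in R-SDS mice and 6.02 and 6.26 in control mice.

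Of the nucleic acid sensors and their adaptors, 11 of 17 had a higher mean (53.4% of all genes) and 6 lay above without overlap (9.52% of all genes). Myd88, the adaptor of most Toll-like receptors, was at 6.69 and 6.80 in R-SDS mice and at 6.46 and 6.37 in control mice, a difference of 0.33 ± 0.13 (SE) (limma's unadjusted p = 0.045, adjusted p = 1). It was higher on R-SDS 2 than on R-SDS 1, unlike most members. Cgas, the sensor of DNA in the cytosol, was at 3.65 and 4.05 in R-SDS mice and at 3.51 and 3.44 in control mice, a difference of 0.37 that was likewise larger on R-SDS 2. Tlr3, Ticam1, Tlr7 and Tlr9 also lay above without overlap, with differences between group means of 0.09 to 0.26. The groups were barely apart for Tlr7 (5.0003 on R-SDS 1 against 4.9998 on Control 1) and Tlr3 (7.2737 against 7.2682 on the same arrays).

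The further interferon-induced effectors were split, with 21 of 40 higher (53.4% of all genes) and 19 lower in mean and a median of 0.02. Cd274, which encodes the checkpoint ligand PD-L1, was at 6.41 and 5.92 in R-SDS mice and at 5.86 and 5.85 in control mice, a difference of 0.31. Lgals9, a galectin, was at 7.50 and 7.37 in R-SDS mice and at 7.19 and 7.07 in control mice, a difference of 0.30 that was alike within number 1 (0.31) and number 2 (0.29). Lgals3bp, picked after its values were seen, had the largest difference of the list (0.58), made by R-SDS 1 alone at 8.79, against 7.34 in R-SDS 2 and 7.56 and 7.41 in control mice. The Ifitm relatives Ifitm5, Ifitm6, Ifitm7 and Ifitm10, also chosen afterwards, had differences of -0.07, -0.02, -0.18 and -0.15. None of these 4 relatives shared the higher mean of Ifitm1, Ifitm2 and Ifitm3.

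In the lists of antigen presentation, 12 of 18 further class I genes and 9 of 13 further class II genes had a higher mean (53.4% of all genes). Their medians were 0.09 and 0.04. Above without overlap lay 5 class I genes and 1 class II gene (9.52% of all genes). Below without overlap lay 1 of each (8.81%), Psmb10 and H2-Eb2. Psme2, a subunit of the proteasome activator that interferon gamma induces, was at 7.06 and 6.63 in R-SDS mice and at 6.44 and 6.54 in control mice, a difference of 0.36. H2-T10, a class I gene outside the classical set, was at 5.19 and 5.00 in R-SDS mice and at 4.60 and 4.97 in control mice, a difference of 0.31. For both the difference was mostly that within number 1 (0.62 and 0.59). Psmb10, the remaining inducible subunit of the immunoproteasome, was named after its values were seen and lay lower without overlap. It was at 7.72 and 7.64 in R-SDS mice and at 7.84 and 7.78 in control mice. H2-Ab1, the beta chain of a class II molecule, was at 5.68 and 5.32 in R-SDS mice, against 5.13 and 4.99 in control mice, a difference of 0.44 ± 0.17 (SE), 1.35-fold (limma's unadjusted p = 0.0399, adjusted p = 1). It was higher in both numbers (0.54 and 0.33). H2-Aa, its alpha chain, named after its values were seen, was at 5.71 and 4.42 in R-SDS mice and at 4.42 and 4.26 in control mice, so that its difference of 0.72 came from R-SDS 1. The chains of this molecule and Cd74 shared the highest array but not the separation of the groups.

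**Figure D5:**
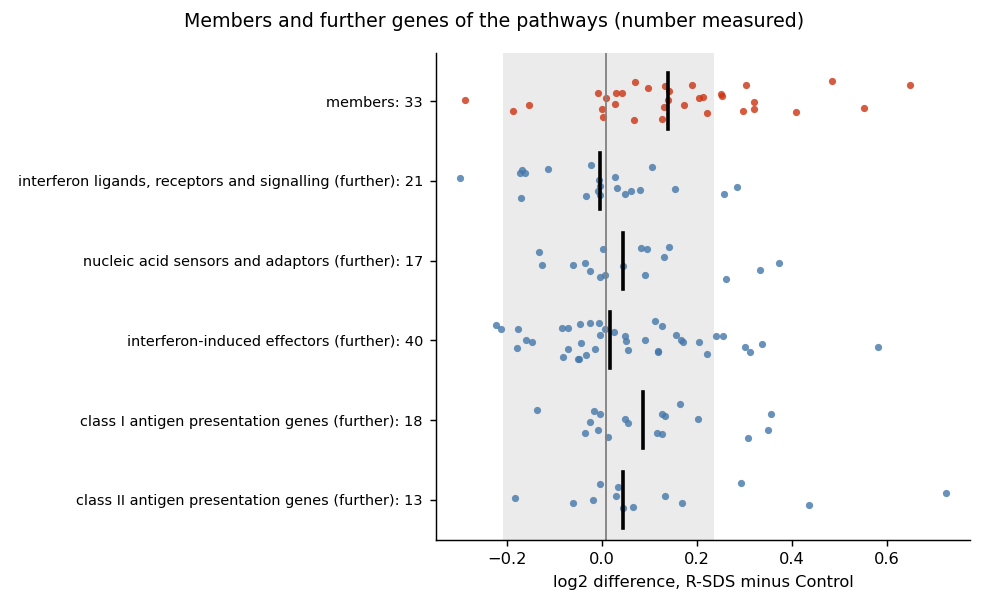
Log2 difference of R-SDS minus Control (horizontal axis) of the 33 measured members (red) and of the measured genes of 5 further lists (blue), 1 point per gene with random vertical offset. Black bars mark each list's median (0.14 for the members, -0.0042 to 0.09 for the further lists), the grey line the median of all genes (0.01) and the shaded band their 5th to 95th percentile (-0.21 to 0.24).

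No value is given for 5 of the 38 listed members. Isg15, Gbp2, H2-K1 and H2-D1 were annotated only in rows shared with another gene symbol, and Ifi44 was not listed in the annotation used, so these 5 were not analysed here. The signal values carry no detection call. On each array 22 to 24 of the 33 members lay below the median of the tested transcripts, and 3 to 6 below their lower quartile. Mx1, Mx2 and Iigp1 lay below that quartile on every array, as did Cgas, Ifnb1, Ifng and Ifitm6, among others, of the further genes. Whether the values of such dim rows reflect expression was not tested.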

How the data were processed

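RNA of dissected hippocampus was hybridised to Affymetrix Mouse Gene 1.0 ST arrays, 1 per mouse. The deposited values are log2 signals that the authors made with RMA in Affymetrix Expression Console, a method that removes background, equalises the distributions of the arrays and combines probes into 1 value per transcript cluster. The columns still differed in spread by replicate number, and how arrays were grouped for RMA and the genome build are not given in the sources used here. Labels and methods give different labelling kits, which is not settled here. Array signals have no read depth, and precision is limited by the small number of arrays. Groups and replicate numbers came from the sample titles, which do not say what a number marks. The samples are dissected tissue of separate mice per the sources, so p-values measure the spread between mice together with any technical differences between arrays.

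Of 35556 rows, the 21789 that the platform annotation pairs with 1 gene symbol were tested, while 1621 with several symbols and 12146 unlisted rows were left out. A gene with several rows was represented by the one with the highest mean over the 4 arrays. R-SDS was compared with Control by limma 3.58.1 (lmFit and eBayes, R 4.3.3), two-sided, with Benjamini-Hochberg adjustment over the tested rows and no filter on dim rows. SEs come from limma's moderated variance (degrees of freedom: 2 residual, 4.07 prior). The procedure was tested on simulated data with independent noise on each array. These data held no part shared by same-numbered arrays, so that test does not cover the replicate number. Thresholds of 0.5 (log2 difference) and 0.05 (unadjusted p) follow the methods. "Not overlapping" means that both R-SDS arrays lay on 1 side of both control arrays.

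The members and gene lists were chosen with earlier results of these data known. Values on each array are given for members past the thresholds and for members not overlapping whose group means differed by at least 0.2. They are also given for the highest and lowest difference of each role and for genes whose rows disagree. From the further lists, genes not overlapping whose group means differed by at least 0.3 were named, at most 4 per list. Other members and genes shown in full (among them Irf9, Ifit1, Bst2, Ifi27, Mx2, Tap1, Psmb8, Tapbp, Ifnb1 and Ifng) were picked after their values were seen. Some of the 134 further names are older and newer symbols of 1 gene. Marker levels are sums of linear signals. Promoters are those of RefSeq (GRCm38.p6). Plots were drawn with matplotlib 3.10.9. Alternatives covered normalization, the replicate block, Student's test of the methods, a filter on dim rows, the rows tested, the prior, the choice of row and leaving out each array.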

Additional observations from a re-analysis of the deposited data

How the results depend on the processing

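With 2 arrays per group, results that rest on 1 array were common. No member passed the adjusted p under any setting (0 of 33, smallest adjusted p from 0.129 without R-SDS 2 to 1), and none was lower past the thresholds of the methods. Of the 2 members higher past these thresholds, 0 were left with the methods' t-test and 1 when all rows were tested, and leaving out 1 array gave 0 to 8. Quantile normalization, a prior with trend and the replicate block kept the count at 2. The labels do not say what a replicate number marks, though same-numbered arrays resembled each other. Deviations of same-numbered arrays correlated at 0.517 over the tested rows, and the limma fit with the replicate block called 7 members higher (2.63% of all genes) and 1 lower (2.13%) at an unadjusted p under 0.05, none after adjustment (smallest adjusted p = 0.96). Over all tested rows, 221 passed an unadjusted p under 0.05 for the stress and 5893 for the replicate number. Leaving out 1 array gave 16 to 24 members above without overlap (27.1% to 34.3% of all genes) and 2 to 6 below (25.3% to 30.2%), since fewer arrays separate more easily, and 21 to 30 members with a higher mean (49.9% to 52.8%). The transcripts past the adjusted p numbered 0 to 49 over these fits. A filter at the median signal left 10 members, 4 of them above without overlap (7.41% of genes) and 9 with a higher mean (55.7%). The median member difference ranged from 0.06 (without R-SDS 1) to 0.25 (without R-SDS 2).

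The difference changed sign in 1 or more of the fits without an array for 14 members, and that of Iigp1, which was 0 with all arrays, took both signs (-0.058 to 0.058). The lowest and highest values were -0.13 and 0.14 for Irf1, -0.093 and 0.079 for Ifnar1, -0.26 and 0.32 for Psmb9, -0.045 and 0.31 for Oas1a, -0.27 and 0.36 for Tapbp, -0.23 and 0.25 for Ifit2, -0.14 and 0.58 for Ifi27, -0.032 and 0.54 for Ifnar2, -0.48 and 0.10 for Mx2, -0.068 and 1.04 for Cd74, -0.055 and 0.11 for Ifih1, -0.22 and 0.60 for Bst2, -0.061 and 0.20 for Ciita and -0.34 and 0.028 for Irf7. Ifitm3 stayed between 0.38 and 0.73, Stat2 between 0.21 and 0.61, B2m between 0.16 and 0.43, Parp14 between 0.24 and 0.40 and Ifit3 between -0.48 and -0.10. The cause of these changes was not tested.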
